A study of Drosophila melanogaster with 2 samples.

Results

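The 6 genes described here set up and read the border between the posterior and anterior compartments of the fly wing: en, inv and hh, which are posterior genes, ci and ptc, which are anterior genes, and smo, which is expressed in both compartments. They were chosen by name from 13922 protein-coding genes. Every H3K27ac peak that overlapped a gene's annotated span, extended by 10 kb on both sides, was counted as a peak of that gene. This gave 46 of 14461 peaks in replicate 1 and 75 of 26420 peaks in replicate 2. The windows of en and inv overlap, and 2 replicate 2 peaks between these genes were counted under both.

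Engrailed and Invected are homeodomain transcription factors made in posterior cells, where Engrailed keeps hh on and ci off. Hedgehog, the secreted ligand, leaves the posterior cells and binds Patched on anterior cells, which releases Smoothened, a membrane protein, and turns the zinc-finger protein Cubitus interruptus (Ci) into an activator. Patched is both the receptor and a target of the pathway. Acetylation of histone H3 at lysine 27 (H3K27ac) is a mark of active promoters and enhancers, whereas silent en, inv and hh are known targets of Polycomb repression.

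Wings were taken from male pupae of Drosophila melanogaster line D2 at 67% of pupal development, with 35 to 45 wings pooled in each of 2 biological replicates, which form 1 group. Line D2 is transgenic, and what its transgene carries is not stated in the labels. CUT&RUN was used, in which an antibody guides a nuclease to the marked chromatin, and 1 peak list per replicate was analysed. There was no second condition and no control sample among the data used here, so no test between conditions was possible and all comparisons below are descriptions of these 2 libraries. The wings held both compartments together, and a mark on fewer cells cannot be told apart from less mark per cell.

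The background estimated by the peak caller was most often 13.8 fragments in replicate 1 and 27.1 fragments in replicate 2, so replicate 2 could list weaker peaks. Of the wing blade genes vg, sd, nub, pdm2, ap, rn, dve and bs, 8 of 8 held within their span a peak found in both replicates. The same held for 1 of 5 muscle genes, 1 of 5 neuronal genes, 0 of 5 hemocyte genes, 2 of 3 tracheal genes, 4 of 6 genes of the notum or other discs, and the haltere gene Ubx, against 38% of all protein-coding genes. With spans extended by 10 kb on both sides, such a peak was found for 8 of 8 wing blade, 4 of 5 muscle, 4 of 5 neuronal and 4 of 5 hemocyte genes. It was also found for 3 of 3 tracheal genes, 6 of 6 genes of the notum or other discs, and Ubx, against 82.9% of all genes. The median span was 31.4 kb for wing blade, 9.1 kb for muscle, 27.7 kb for neuronal, 13.9 kb for hemocyte and 7.46 kb for tracheal genes. Neither length nor chromosome was matched in these counts. The muscle genes up and wupA, the neuronal gene elav and the wing blade gene sd are X-linked.

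All 6 genes had peaks in replicate 1, as did 86% of all protein-coding genes, and all 6 had peaks in replicate 2, as did 92%. Each window held at least 4 replicate 1 peaks that overlapped a replicate 2 peak by 1 bp or more, called shared peaks here. A shared peak was found in the same kind of window for 82.9% of all protein-coding genes, and at least 4 for 43.3%, so the presence of a shared peak sets these genes little apart. Scaled to window length, shared peaks numbered 1.65 per 10 kb at en, 1.63 at inv, 1.78 at hh, 2.05 at ci, 2.81 at ptc and 2.44 at smo, against a median of 1.31 over all genes. The 6 values stood between percentiles 63.2 and 93.3 of all genes, with inv lowest and ptc highest. Both backgrounds differed by chromosome, and none of the 6 genes is X-linked. On the X, 59.5% of 2197 genes had a shared peak, with a median of 0.398 per 10 kb, against 87.3% and 1.42 for the 11725 genes on the other arms. On chromosome 4, where ci lies, the median over 80 genes was 0.451 per 10 kb. The genes en, inv, hh, ptc and smo thus lay above the median of genes off the X too, and ci above that of its own chromosome. Within the gene spans alone, 6 of 6 held a shared peak, against 38% of all genes, and the 6 spans were longer than 71.1% to 96.1% of gene spans.

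**Figure D1:**
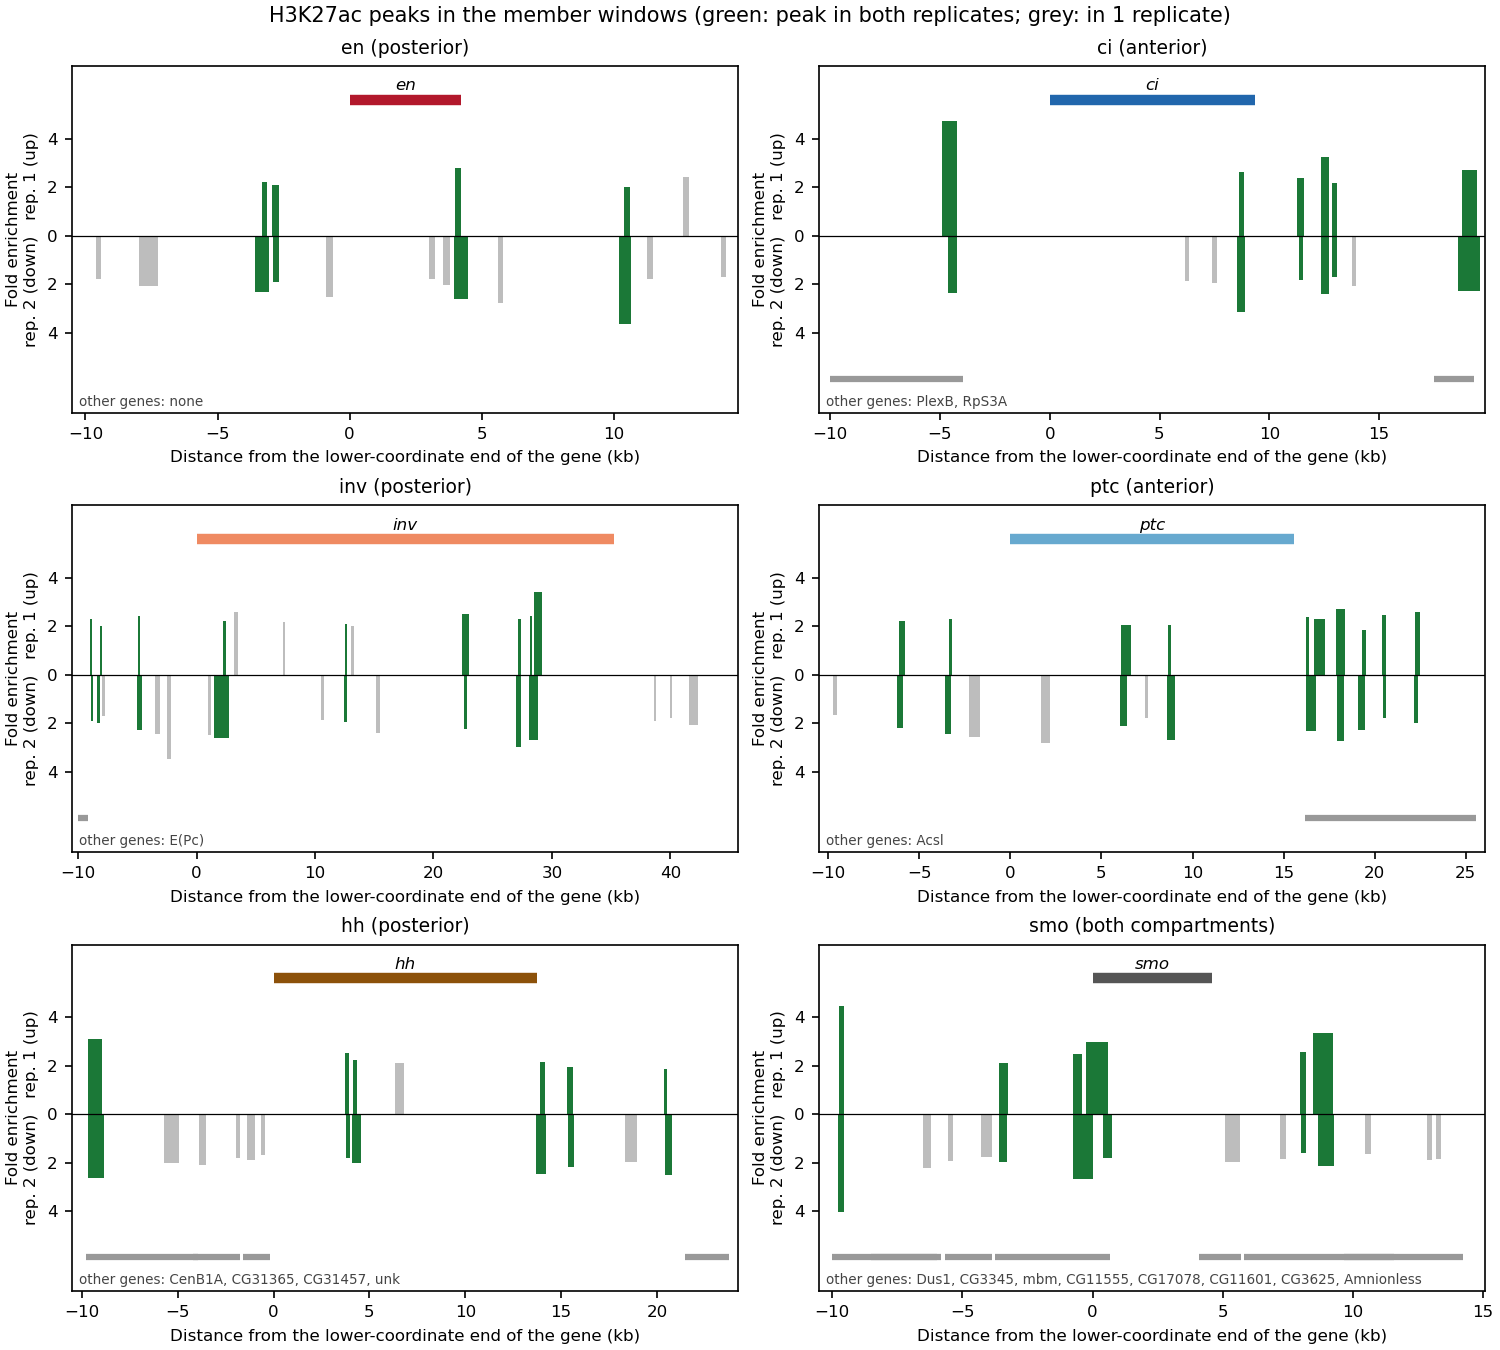
Each panel shows 1 gene window, with distance from the lower-coordinate end of the gene in kb on the x axis and the deposited fold enrichment of each peak on the y axis, upward for replicate 1 and downward for replicate 2. Green bars are peaks found in both replicates, grey bars peaks of 1 replicate, the coloured line is the gene and grey lines are other protein-coding genes, and narrow peaks are drawn wider than they are. The highest replicate 1 bars at ci and smo lie over PlexB and Dus1, and 6 shared peaks of the ptc window lie over Acsl.

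The en gene spans 4.21 kb at chr2R:11524006-11528210 on dm6, with no other protein-coding gene in its window. Its list held 5 peaks in replicate 1 and 12 in replicate 2, of which 4 were shared. The shared peak that reached the gene lay at its higher-coordinate end, at chr2R:11527980-11528227 in replicate 1, and its summit fell on the same base in both replicates. Fold enrichment, written below as fold, is the pileup of fragments at the summit over the caller's background, with 1 added to each. At this peak it was 2.79 in replicate 1 (95% interval 2.04 to 3.74) and 2.63 in replicate 2 (2.11 to 3.25). These exact Poisson intervals take the pileup of 43 and 84 fragments as counts and cover counting error only. The gene's orientation is not in the table used, so whether this end is the promoter was not determined.

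Away from the gene, a pair of shared peaks lay between inv and en, 3.20 and 2.92 kb below the lower end of en, with fold enrichments of 2.23 and 2.09 in replicate 1 and 2.34 and 1.90 in replicate 2. These peaks were low in the replicate 1 list, at its percentiles 30.8 and 18.1. The remaining shared peak lay beyond the other end, with its replicate 1 summit 6.28 kb from en, and the replicates gave it unlike ranks. Replicate 1 gave it 29 fragments and a fold of 2.02 (interval 1.38 to 2.88), replicate 2 gave it 107 fragments and a fold of 3.63 (2.98 to 4.38). In rank it stood at percentile 12.5 of the replicate 1 list and percentile 99.0 of the replicate 2 list. The lists differ in length and fold scale, so this is no measure of change. A gap of that size or larger in that direction was found for 13 of 11423 shared peaks on the chromosome arms (0.114%). Replicate 2 alone listed 8 further peaks in the window, up to a fold enrichment of 2.76 at chr2R:11529612-11529789.

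The inv gene spans 35.2 kb at chr2R:11474465-11509695, the longest of the 6. Its window held 12 peaks in replicate 1 and 17 in replicate 2, with 9 shared replicate 1 peaks. Of these, 6 lay inside the gene, 3 lay between inv and its neighbour E(Pc), and 0 reached either end of inv to within 500 bp. The highest was an internal peak at chr2R:11502988-11503622, with a fold of 3.43 in replicate 1 (interval 2.59 to 4.45), while replicate 2 gave 2.70 (2.16 to 3.33), and the summits were 2 bp apart. A neighbouring internal peak at chr2R:11501634-11501798 had 2.29 in replicate 1 and 2.97 in replicate 2. No peak of either list was found over the next 9.42 kb, from chr2R:11503623 to 11513045, which includes the higher-coordinate end of inv.

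The highest replicate 2 peak of the inv window had no counterpart in replicate 1. It lay 2.23 kb below the lower end of inv, at chr2R:11471947-11472322, with a fold enrichment of 3.46 and a pileup of 107 fragments, at percentile 98.5 of its list. Of 373 replicate 2 peaks on the arms that were at least as high, 33 (8.85%) had no replicate 1 partner. Replicate 1 in turn listed 3 peaks inside inv that replicate 2 did not, with fold enrichments from 2.03 to 2.59.

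Beyond the windows, inv and en occupy an interval of 112 kb with no other protein-coding gene, between E(Pc), which encodes a chromatin protein, and tou. The whole interval held 27 peak summits in replicate 1 and 40 in replicate 2, and 22 of the replicate 1 peaks were shared. The stretch of 49.3 kb from en to tou held 12 and 17 of these summits, with 10 shared replicate 1 peaks. The highest replicate 1 peak in that stretch, 30.1 kb from en at chr2R:11558089-11558478, had a fold of 3.02 in replicate 1, while replicate 2 gave 2.46. The shared peaks therefore ran on for 47.1 kb past en, far outside the 10 kb window, and the last of them lay nearer to tou than to en. The 14.3 kb between inv and en held 2 summits in replicate 1 and 6 in replicate 2. Per 10 kb this was 1.40 summits in replicate 1, against 2.44 from en to tou, and 4.19 in replicate 2, against 3.45 from en to tou, so the order turned between the replicates.

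**Figure D2:**
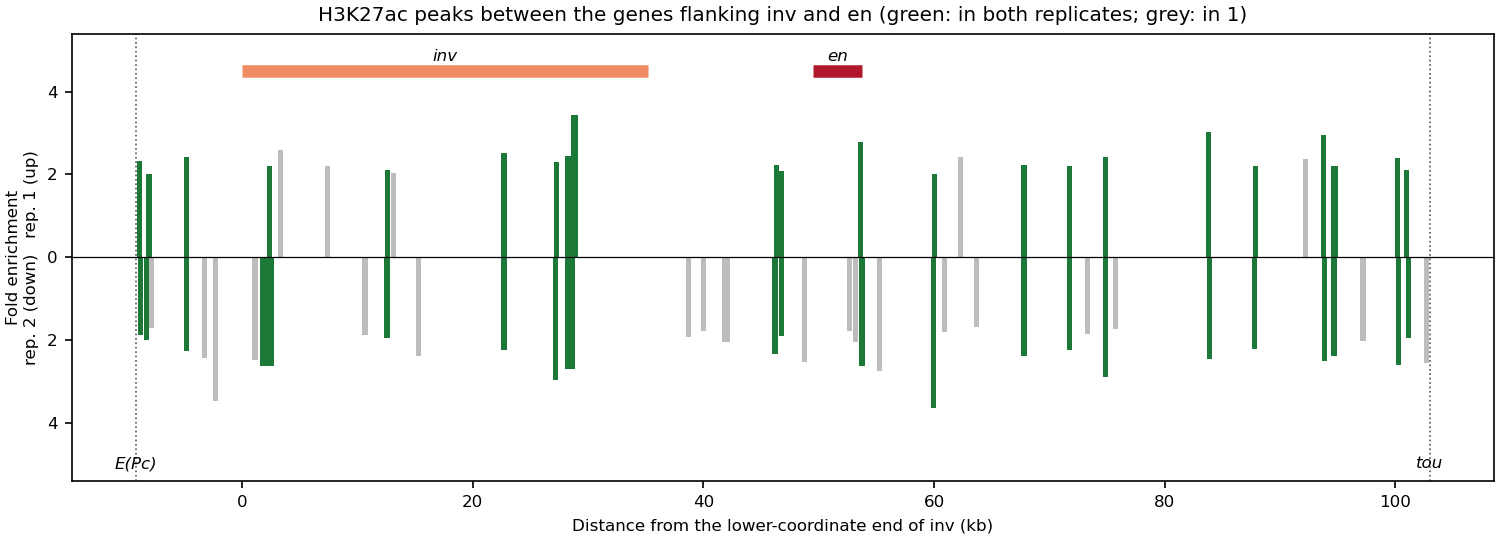
The x axis gives distance in kb from the lower-coordinate end of inv, and the y axis the fold enrichment, upward for replicate 1 and downward for replicate 2. Green bars are in both replicates, grey bars in 1, the dotted lines mark the ends of E(Pc) and tou, and narrow peaks are drawn wider than they are. Green bars stand inside inv, at the far end of en and along the 49.3 kb beyond it.

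The hh gene spans 13.7 kb at chr3R:23128169-23141906. Its window held 7 peaks in replicate 1 and 12 in replicate 2, with 6 shared. A close pair of shared peaks lay inside the gene, 3.89 and 4.26 kb from its lower end, with fold enrichments of 2.51 and 2.24 in replicate 1 and 1.82 and 2.03 in replicate 2. At the higher-coordinate end, a shared peak at chr3R:23142047-23142331 had 2.16 in replicate 1 and 2.47 in replicate 2. Further peaks beyond that end, towards the gene unk, had 1.94 and 1.88 in replicate 1, and their replicate 2 partners had 2.20 and 2.52. The peaks on that side stood low in the replicate 1 list, at percentiles 24.9, 7.0 and 4.28, and higher in the replicate 2 list, at percentiles 81.0, 63.6 and 83.3. The highest peak of the window, 3.09 in replicate 1 and 2.63 in replicate 2, lay inside the neighbour CenB1A, near the edge of the window. At the lower-coordinate end, 187 bp from CG31457, only replicate 2 listed peaks, the nearest with a fold enrichment of 1.71.

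The ci gene spans 9.33 kb on the small chromosome 4 at chr4:47710-57041. Its window held 6 peaks in replicate 1 and 9 in replicate 2, and 6 of 6 replicate 1 peaks were shared. The shared peak inside ci lay near its higher-coordinate end, at chr4:56316-56538, with a fold of 2.65 in replicate 1 (interval 2.06 to 3.35), while replicate 2 gave 3.15 (2.58 to 3.80). It was the highest peak of the replicate 2 list in the window, at percentile 96.6 of that list. A group of 3 shared peaks lay 11.5 to 12.9 kb from the lower end, between ci and RpS3A, the highest of them with 3.26 in replicate 1 and 2.40 in replicate 2. The highest replicate 1 peak, at chr4:42788-43485, lay over PlexB, the plexin gene next to ci, with 4.72 in replicate 1 (3.69 to 5.96) and 2.35 in replicate 2 (1.82 to 2.98), at percentiles 99.3 and 74.7 of the lists. Between that peak and chr4:53863 lay 10.4 kb without a peak in either list, a stretch that includes the lower-coordinate end of ci and much of its span.

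The ptc gene spans 15.6 kb at chr2R:8649649-8665223. Its window held 10 peaks in replicate 1 and 13 in replicate 2, and 10 of 10 replicate 1 peaks were shared, the most of the 6 genes. Only 2 of them lay inside ptc, at 6.18 and 8.66 kb from its lower end, with fold enrichments of 2.06 and 2.07 in replicate 1 and 2.12 and 2.69 in replicate 2. A further 2 lay below ptc, outside any protein-coding gene, with 2.22 and 2.31 in replicate 1 and 2.19 and 2.43 in replicate 2. The remaining 6 lay over Acsl, an acyl-CoA synthetase gene that begins 589 bp beyond ptc, with fold enrichments from 1.84 to 2.73 in replicate 1. The highest peak inside ptc was listed in replicate 2 alone, at chr2R:8651324-8651840, with 2.83 and a pileup of 133 fragments. The 7.21 kb from chr2R:8658672 to 8665880, from inside ptc across its higher-coordinate end to the first bases of Acsl, held no peak in either list.

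The smo gene spans 4.59 kb at chr2L:277582-282167, and its window touches 8 other protein-coding genes. It held 6 peaks in replicate 1 and 14 in replicate 2, and 6 of 6 replicate 1 peaks were shared. At the lower-coordinate end of smo, where its span overlaps that of CG17078, a wide peak at chr2L:277350-278177 had 2.96 in replicate 1, and its higher replicate 2 partner had 2.70. The highest peak of the window, at chr2L:267835-268033 inside Dus1, had 4.48 in replicate 1 and 4.02 in replicate 2 and ranked at percentiles 99.0 and 99.6. Of the shared summits, 0 were nearer to smo than to another protein-coding gene, since the peaks at its lower end had their summits within CG17078.

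The contrast of compartments asked whether the posterior genes carried more or less of the mark than the anterior genes, and the answer differed between the replicates. The posterior genes en, inv and hh averaged 1.69 shared peaks per 10 kb and the anterior genes ci and ptc 2.43, a difference of -0.74. In replicate 1 alone the posterior mean was 2.10 peaks per 10 kb and the anterior mean 2.43, a difference of -0.32. In replicate 2 alone the posterior mean was 3.86 and the anterior mean 3.36, a difference of 0.50, so the direction turned. Single genes in replicate 2 had 4.96 at en, 3.08 at inv, 3.56 at hh, 3.07 at ci and 3.65 at ptc. Only en thus lay above both anterior genes. The percentage of the window covered by peaks turned in the same way, with 5.75% posterior and 8.70% anterior in replicate 1, and 14.4% posterior and 11.1% anterior in replicate 2. These are 3 genes at 2 loci set against 2 genes, which are not replicates, so no test was made.

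The contrast also depended on which peaks were credited to a gene. Within the gene spans alone, posterior genes averaged 1.85 shared peaks per 10 kb and anterior genes 1.18, a difference of 0.67. When each peak went to the protein-coding gene that held or was nearest to its summit, the means were 1.31 posterior and 1.24 anterior. The anterior windows owed 6 shared peaks to Acsl, 1 to PlexB and 1 to RpS3A, whereas the posterior windows owed 1 to a neighbouring gene, CenB1A.

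**Figure D3:**
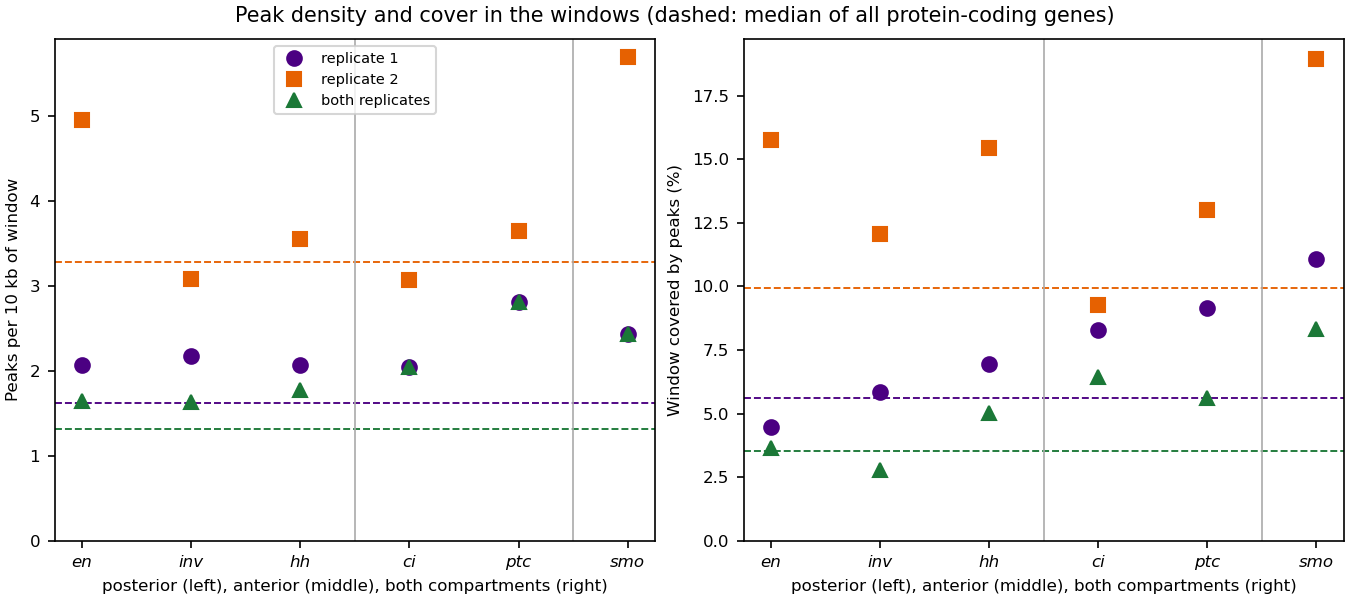
The left panel plots peaks per 10 kb of window and the right panel the percentage of the window covered, for each gene, with circles for replicate 1, squares for replicate 2 and triangles for both replicates. Dashed lines are the medians of 13922 protein-coding genes. Replicate 2 puts en above ci and ptc in density, whereas the triangles of en, inv and hh lie below those of ci, ptc and smo.

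The lists differed in how far they shared the peaks in the windows of each compartment's genes. The anterior windows include the peaks over Acsl, PlexB and RpS3A. Of the replicate 1 peaks, 19 of 24 in the posterior windows (79.2%) and 16 of 16 in the anterior windows overlapped a replicate 2 peak, against 79.2% of all replicate 1 peaks. Of the replicate 2 peaks, 18 of 39 in the posterior windows (46.2%) and 15 of 22 in the anterior windows (68.2%) overlapped a replicate 1 peak, against 44.7% of all. The posterior windows were thus at the level of the whole lists. At smo, which is expressed in both compartments, 6 of 6 replicate 1 peaks and 6 of 14 replicate 2 peaks (42.9%) were shared. Full sharing of the replicate 1 peaks was thus not particular to the anterior genes. At en, 4 of 12 replicate 2 peaks (33.3%) were shared, the lowest share of the 6 genes.

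Summits of shared peaks lay close together. Over the 41 distinct shared peaks, the median distance between summits was 89 bp, against 64 bp for all shared peaks, and it was 33 bp at en and 142 bp at ci. In rank, 4 of 4 peaks at en, 7 of 9 at inv and 5 of 6 at hh stood higher in the replicate 2 list, as did 1 of 6 at ci, 8 of 10 at ptc and 4 of 6 at smo. Together, 29 of 41 peaks (70.7%) stood higher in replicate 2, against 65.8% of all shared peaks. Most ci peaks and most ptc peaks thus went opposite ways, although both genes are anterior.

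**Figure D4:**
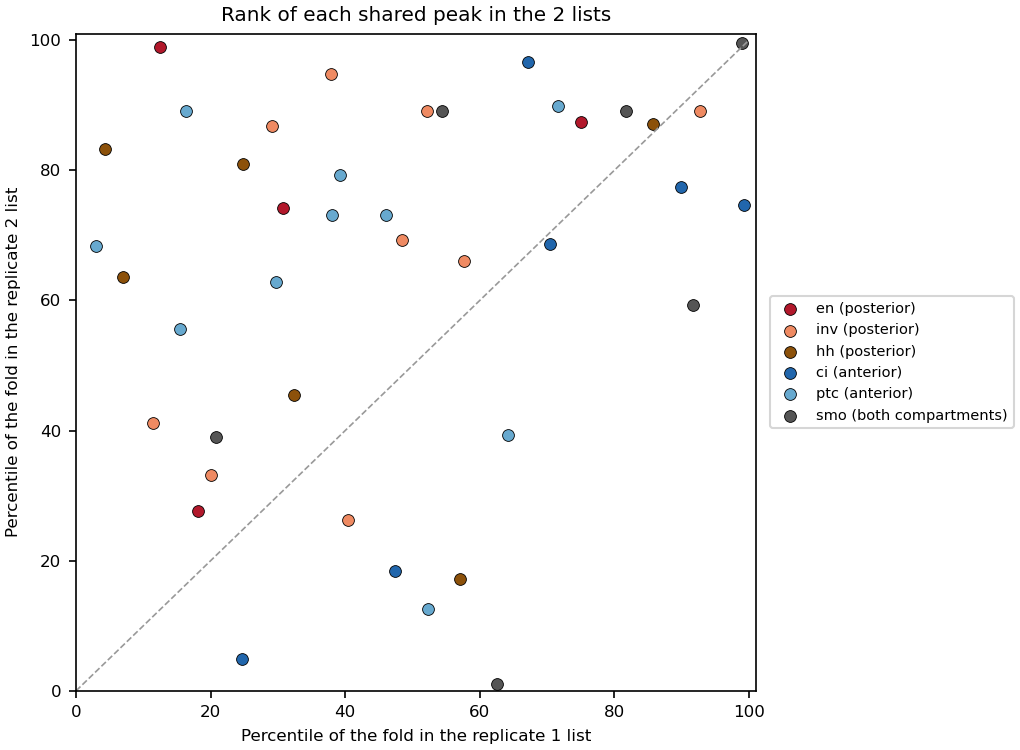
Each point is a shared peak, with the percentile of its fold enrichment within the replicate 1 list on the x axis and within the replicate 2 list on the y axis, coloured by gene. The dashed line marks equal rank. The en peak at percentiles 12.5 and 99.0 stands in the upper left corner, and 5 of 6 ci peaks lie below the line.

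The background that the caller set beneath each peak separated the posterior genes from each other. It was recovered from the fold and p-value of each peak and is given relative to the most frequent value of its list. At en the median over its peaks was 1.00 in replicate 1 and 1.10 in replicate 2. In replicate 1, 4 of 5 en peaks were at the genome-wide value, against 16.4% of all peaks. In replicate 2, 1 of 12 were, against 20.7% of all peaks, so the order turned between the lists. At inv the median was 1.08 in replicate 1 and 1.11 in replicate 2. At hh it was 2.03 and 1.56, and 6 of 7 peaks in replicate 1 and 12 of 12 in replicate 2 exceeded the median of all peaks, which was 1.43 in replicate 1 and 1.26 in replicate 2. The pileup beneath like folds therefore differed: the shared peak at the end of hh had 72 fragments in replicate 1 at a fold of 2.16, and the peak between inv and en had 32 fragments at a fold of 2.23. Among the anterior genes, ptc had medians of 1.86 and 1.53, and ci had 1.68 in replicate 1 and 1.14 in replicate 2. At smo the medians were 1.51 and 1.52. Thus the medians of en and inv lay below the median of all peaks in both lists. Those of hh, ptc and smo lay above it, so that the order did not follow the compartments. Whether the background came from the surrounding signal or from a control library is not given in the sources used here.

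**Figure D5:**
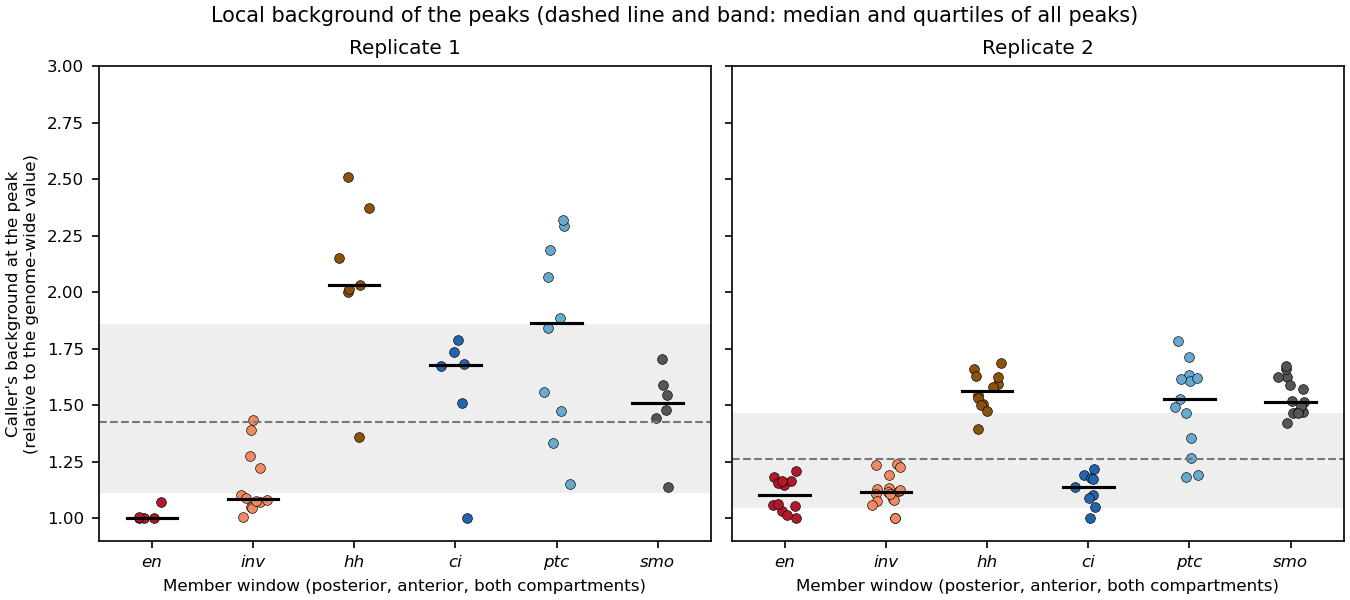
Each point is a peak, with the caller's background at that peak relative to the genome-wide value of its list on the y axis and the gene on the x axis, with replicate 1 on the left and replicate 2 on the right. Black bars are medians over the peaks of a gene, and the dashed line and grey band are the median and quartiles of all peaks. Points of en and most points of inv lie low in both panels, with 1 inv point above the dashed line in replicate 1. Those of hh, ptc and smo lie mostly above that line, whereas ci changes place between the panels.

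Other genes of Hedgehog signalling were read from a list of 33 genes by role, with the same windows. A shared peak was found for 32 of 33 (97.0%), against 82.9% of all protein-coding genes, and the median was 1.60 shared peaks per 10 kb against 1.31. The gene without one was nej, which encodes the acetyltransferase CBP, a co-activator of Ci that itself acetylates H3K27. It had 1 peak in replicate 1 and 5 in replicate 2, none of them overlapping. The gene nej is X-linked, and 7 of 7 X-linked genes of the list, which also include shf, boi, CkIalpha, sgg, fu and exd, lay below the median of all genes, at 0 to 0.872 per 10 kb. Of all genes on the X, only 196 of 2197 lay above that median. Against the X median of 0.398 per 10 kb, boi, exd, CkIalpha and fu lay above, and shf, sgg and nej below. Of the 26 other genes of the list, 20 lay above the median of all genes, as did 6765 of 11725 genes off the X. A shared peak was found for 26 of 26, against 87.3% of all genes off the X. The median span of the 33 genes was 8.23 kb, and the span of smo, at 4.59 kb, was already longer than 73.2% of gene spans. Length was not matched in these counts, so the excess over all genes cannot be told apart from longer windows.

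For release and spreading of the ligand, 8 of 8 genes had a shared peak, with 15 at dlp and 13 at dally, which encode the glypicans that carry Hedgehog along the cell surface. Their windows were long, at 59009 and 83688 bp, and held 2.54 and 1.55 shared peaks per 10 kb. The co-receptor gene ihog had 10 shared peaks, or 4.28 per 10 kb, at percentile 99.9 of all genes, and 3 of them lay in its own span. Its partner boi had 4, or 0.872 per 10 kb. The co-receptor genes stood at opposite sides of the median of all genes, with ihog on 2L and boi on the X. Each lay above the median of its own chromosome, which was 1.33 per 10 kb on 2L and 0.398 on the X.

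Of the kinases, 5 of 5 had a shared peak, with 12 at Gprk2, which phosphorylates Smoothened, and 4 at Pka-C1, which primes Ci for processing. Gprk2 alone of the 5, at 1.65 per 10 kb, lay above the median density of all genes, and CkIalpha, sgg and fu are among the X-linked genes, so that role and chromosome cannot be told apart for these 3. For the complex that holds and processes Ci, 6 of 7 genes had a shared peak, nej being the exception. The same 6 lay above that median, as did 6765 of 11725 genes off the X. The highest count was 20 at rdx, which encodes an adaptor for the degradation of Ci, followed by 6 at Su(fu) and 6 at Cul3. The window of rdx was long, at 84997 bp. Per 10 kb the values were 2.35 at rdx, 2.78 at Su(fu) and 2.24 at Cul3. For turnover of Smoothened, 3 of 3 had one, with 6 at krz, an arrestin, and 5 at Smurf, a ubiquitin ligase.

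Among the targets at the compartment border, 5 of 5 genes had a shared peak. The transcription factor gene kn had 9, and dpp, the ligand made along the border, had 8, as did ara, which acts in vein formation. Their densities were 1.65, 1.55 and 2.26 shared peaks per 10 kb. The neighbours of ara in the Iroquois complex were lower, at 0.311 for caup and 0.273 for mirr. Of the cofactor genes of Engrailed, 3 of 3 had a shared peak, with 7 at hth, 5 at gro, the co-repressor that Engrailed recruits, and 2 at exd. Per 10 kb they had 0.461 at hth, 1.77 at gro and 0.832 at exd, so that 1 of 3 lay above the median of all genes. Of all genes, 6765 of 11725 off the X and 196 of 2197 on the X, where exd lies, did so.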

How the data were processed

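Narrow peak lists of 2 H3K27ac CUT&RUN replicates were used as deposited. Per the submitters' processing notes, Bowtie2 and MACS2 were used with build dm6; for their versions, settings and any control, the entry is "not given in the sources used here". As deposited, the fold (a ratio of pileup to background), −log10 p and −log10 q, and the deposited score, a whole-number form of −log10 q, are the caller's own values. They were used to describe and rank peaks within a list. Folds of both lists stand side by side but are not on 1 scale, since the median fold was 2.43 in replicate 1 and 2.07 in replicate 2. Whole-number pileups and backgrounds were solved from fold and p for all but 1 peak of each list, within 0.001 of −log10 p, and the solver and window counts were tested on simulated data. Gene spans came from a RefSeq table for Release 6, which is dm6, without strand or exons. Peaks were not filtered. Overlaps and percentiles were computed with Python 3.11.15, numpy 2.4.6, pandas 2.3.3 and scipy 1.17.1. The members and lists were chosen with earlier results of these data known.

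Named were all 6 genes, genes in or next to their windows, pathway genes without a shared peak and the top 2 genes of each role, and the 3 genes nearest to en, hh, ci and ptc in 5 percentile measures. Alternatives varied the window, threshold, list length, overlap rule, peak assignment and replicates.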

Additional observations from a re-analysis of the deposited data

How the results depend on the processing

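The lists hold 1 group of 2 replicates of unequal list length and caller's background, and peaks below the caller's threshold are unlisted, so an unlisted region has no value. No paired analysis was possible because there is only 1 group. When a replicate was left out, no peak could be shared, and all peaks of the remaining list were used instead. The posterior minus anterior difference in shared peaks per 10 kb was -0.74 and ranged from -0.32 to 0.50 when a replicate was left out. It turned to 0.67 within the gene spans and to 0.064 when peaks went to the nearest gene, and stayed negative, from -1.08 to -0.37, in the other window, threshold and overlap settings. Among settings chosen after seeing the data it was -1.12 without ci, -0.36 without ptc, -0.66 with en and inv merged and -0.68 with the replicate 2 list cut to the length of replicate 1. The 41 shared peaks became 13 within the gene spans, 19 with a −log10 q of at least 5, 12 with the 7230 top peaks of each list, 21 with a reciprocal overlap of 50% and 22 by nearest gene. Counted without the sharing rule, replicate 1 alone held 46 peaks and replicate 2 alone 75. The percentage of protein-coding genes with a shared peak, 82.9, became 38.0 within the gene spans, 74.6 at 5 kb, 89.2 at 20 kb, 75.5 with a −log10 q of at least 5, 61.7 with equal lists, 76.7 with reciprocal overlap and 40.9 by nearest gene. For any peak of a single list it was 86.0 in replicate 1 and 92.0 in replicate 2. The mean highest fold, 3.41 over genes and both lists, whose scales differ, became 2.76 within the gene spans, 3.07 at 5 kb and 2.88 by nearest gene, and 3.29 to 3.54 when a replicate was left out. The mean covered percentage, 5.31 in both lists, was 1.93 with equal lists, 3.18 with a −log10 q of at least 5, 3.63 within the gene spans, 4.5 at 20 kb, 6.16 at 5 kb, and 7.62 to 14.1 when a replicate was left out. The pathway count of 32 ranged from 24 to 33 over all settings. Of 78 recounts of shared peaks for single genes, 54 stayed within 1.5 times the reported count and 24 did not.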

Other observations

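Genes elsewhere in the genome whose windows looked most like those of the members were found by the distance between 5 percentile measures (shared peaks per 10 kb, and covered percentage and highest fold in each of the 2 replicates). Nearest to en was PGRP-SD, a peptidoglycan recognition protein gene, at a distance of 10.4 percentile points, where the highest fold was 2.79 in replicate 1 and 3.63 in replicate 2 at en, compared with 2.70 and 3.39 at PGRP-SD. CG7492 and CG8765 followed at 15.8 and 17.5, and PGRP-SD and CG7492, both on 3L, had equal highest folds in each list. Nearest to hh were Tsp42El, CG9948 and TBC1D5, at 6.46 to 7.07. Nearest to ci were Ect3, CG5122 and Shal, a potassium channel gene, at 5.49 to 9.80. Nearest to ptc were CG13067, CG34248 and CanB2, a calcineurin B gene, at 9.88 to 10.9. CG13067 and CG34248, both on 3L, also had equal highest folds in each list. Whether genes with equal folds hold the same peaks was not determined.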
